A study of Homo sapiens with 10 samples.

Results

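Interferon-stimulated genes are the genes whose transcription cells raise when interferon or foreign nucleic acid is sensed. The set described here is a list of 37 such genes, chosen by name with earlier results of these data known. Of these, 36 had a row in the deposited count matrix of 12373 genes. MX2 had no row and was not analysed here.

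The cells were Kuramochi, a human ovarian cancer line that the labels give as epithelial and BRCA2-mutant. Cells that had not met the drug were taken through a rising series of olaparib, an inhibitor of the DNA repair enzymes PARP1 and PARP2, each dose kept on until the dish was full. The 10 populations were C (untreated) and T1, T2.5, T5, T10, T20, T40, T80, T160 and T320, named for doses of 1, 2.5, 5, 10, 20, 40, 80, 160 and 320 µM, and all of them carried the BRCA2 mutation of the parent line. Each population was 1 inDrop library, a droplet method that tags every RNA molecule of a cell with a cell barcode and a molecular identifier (UMI), so no dose had a replicate and every difference between populations is also a difference between libraries.

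In this pathway, secreted interferon binds a receptor on the cell surface, kinases of the JAK family phosphorylate STAT proteins, and these join IRF9 in a complex that binds interferon-stimulated response elements (ISREs) near its target genes. A subset of the targets, among them IFIT1, IFIT2, IFIT3, OASL and ISG15, can also be switched on directly by IRF3, the factor that sensors of DNA and RNA in the cytoplasm activate, without interferon in between. The products block virus entry, sense or degrade viral RNA, tag proteins with the ubiquitin-like ISG15, or feed back on the pathway.

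Promoters of 6 of the genes are printed here because they show the element that many genes of the list carry. RefSeq promoter windows on GRCh38.p14, reaching from 250 bases before to 50 bases after an annotated start, could be matched to 30 of the 37 genes. The letters GAAANNGAAA, on either strand, were present in at least 1 window of 22 of these 30 genes (73.3%), against 3.92% of the 9697 genes of the matrix with such a window. A second motif, TTCNNNGAA, the core bound by pairs of STAT proteins, was in windows of 10 of 30 (33.3%), against 8.70% of the 9697. The letters of both motifs can overlap within a window, and a match in letters is not a measured binding site. The following lines give the 170 bases before the start, 5′ to 3′ on the strand of the gene, with each GAAANNGAAA match in capitals (TTTCNNTTTC where it lies on the other strand).
IFIT1: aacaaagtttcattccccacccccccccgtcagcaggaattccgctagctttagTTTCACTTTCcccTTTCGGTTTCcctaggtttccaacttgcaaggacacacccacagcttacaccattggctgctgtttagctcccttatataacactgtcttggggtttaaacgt
IFIT5: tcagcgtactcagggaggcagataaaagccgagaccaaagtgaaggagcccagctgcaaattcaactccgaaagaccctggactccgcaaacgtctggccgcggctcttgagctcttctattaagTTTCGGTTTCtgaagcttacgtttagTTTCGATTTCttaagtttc
ISG15: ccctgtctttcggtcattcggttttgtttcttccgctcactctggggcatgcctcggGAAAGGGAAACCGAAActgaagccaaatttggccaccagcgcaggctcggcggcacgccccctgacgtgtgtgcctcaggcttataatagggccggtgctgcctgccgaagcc
IFI6: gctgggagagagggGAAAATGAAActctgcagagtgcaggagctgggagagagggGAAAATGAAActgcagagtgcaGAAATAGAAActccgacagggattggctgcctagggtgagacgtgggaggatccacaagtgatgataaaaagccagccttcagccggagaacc
IFI27: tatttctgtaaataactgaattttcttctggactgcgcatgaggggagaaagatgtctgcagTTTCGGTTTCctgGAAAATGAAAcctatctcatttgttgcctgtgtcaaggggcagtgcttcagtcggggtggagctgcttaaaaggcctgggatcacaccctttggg
BST2: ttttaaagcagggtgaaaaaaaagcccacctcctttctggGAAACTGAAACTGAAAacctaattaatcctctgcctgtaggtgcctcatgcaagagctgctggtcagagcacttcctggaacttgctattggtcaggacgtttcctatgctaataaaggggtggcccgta
These stretches lie at chr10:89392453-89392622 (IFIT1, plus strand), chr10:89414398-89414567 (IFIT5, plus strand), chr1:1013327-1013496 (ISG15, plus strand), chr1:27672193-27672362 (IFI6, minus strand), chr14:94110566-94110735 (IFI27, plus strand) and chr19:17405631-17405800 (BST2, minus strand). IFIT1 and IFIT5 are neighbours on chromosome 10, with the transcribed parts at chr10:89392623-89406487 and chr10:89414568-89420997, and both carry 2 full matches in the stretch shown. The window of IFI27 belongs to a start inside the gene, whose annotated span is chr14:94105894-94116690. The 6 genes were chosen because they differed from one another in the cells, by the 2-fold limit described below: IFI27 and BST2 were above C at 1 and 2.5 µM, IFI6 and ISG15 at 1, 2.5 and 20 µM, IFIT1 at 1 and 20 µM, and IFIT5 at none.

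Depth set what could be seen. The libraries held 726 to 2645 cells and 1976069 to 9343704 UMIs, with medians of 1145 (T2.5) to 2974.5 (T80) UMIs per cell. A gene was listed in a library either at 0 or in at least 0.957% of its cells, so a value of 0 is a value listed at 0 and not proof of absence. Across libraries, 970 cell barcodes occurred in more than 1, covering 1984 of 18209 cells. Levels are UMIs summed over all cells of a population and scaled to the library total (CPM). Differences are of log2(CPM + 10), which understates the change of low genes, and a gene is called higher or lower at 1 or more on that scale, which is 2-fold. Of the 36 genes, 33 reached the 100 UMIs over all populations that were required, and OASL (96 UMIs), IRF9 (93 UMIs) and OAS2 (61 UMIs) did not. XAF1, IFIH1 and ISG20 were listed at 0 in at least 6 populations and reached the minimum through the libraries where they were seen. Among the 36, 19 had a mean of at least 20 CPM, and intervals given below are 95% exact intervals that cover counting error only.

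The interferon-stimulated genes had 2 high points, at the lowest doses and at 20 µM, and lower values from 40 µM on. In T1, 16 of the 33 genes were at least 2-fold above C and 0 were below, against 4.41% of all 11387 tested genes above and 2.28% below. In T2.5 the counts were 12 and 0, against 2.92% and 1.26% of all genes. XAF1 was counted as above C in both T1 and T2.5, and it was listed at 0 in C. T5 had 2 above and 0 below, against 4.79% and 2.44%, and T10 had 2 above and 1 below, against 8.66% and 3.86%. In T20, 10 were above and 0 below, against 4.58% and 3.5%. From there the direction turned: T40 had 0 above and 4 below (6.23% and 4.77% of all genes), T80 1 and 8 (6.52% and 6.87%), T160 0 and 10 (9.67% and 6.92%), and T320 0 and 12 (11.1% and 8.03%). The share of the 33 genes called lower in T40 was therefore 12.1%, and in T320 it was 36.4%. The median difference from C over the 33 genes was 0.93 at 1, 0.65 at 2.5, 0.00 at 5, 0.13 at 10, 0.72 at 20, -0.13 at 40, -0.35 at 80, -0.56 at 160 and -0.74 at 320 µM, while that over all tested genes lay between 0.00 and 0.18. The comparisons with C all share its 1 library.

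**Figure D1:**
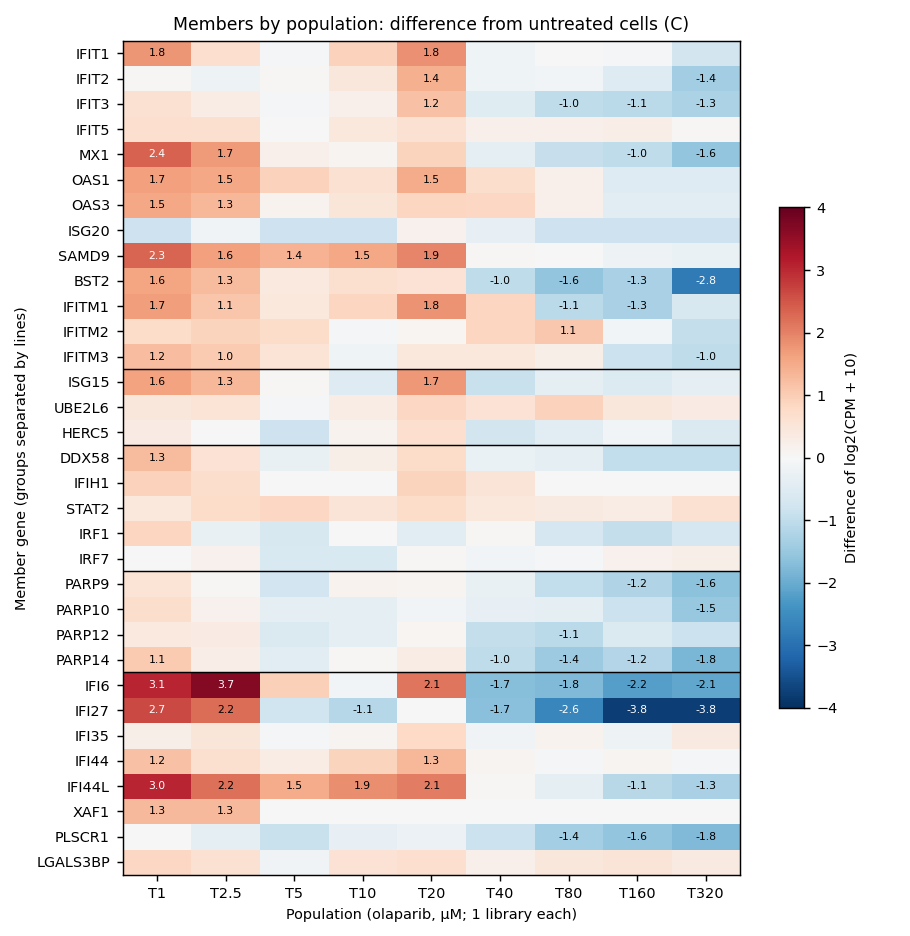
Difference of log2(CPM + 10) between each population and untreated cells for the 33 genes with at least 100 UMIs, 1 library per population, ordered by role and printed where it reaches 1 in size. Red (higher than C) fills T1, T2.5 and T20, where 16, 12 and 10 genes are called, and blue (lower than C) fills the columns from T40 to T320.

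Antiviral effectors, proteins that act on the virus or its RNA, made up 16 of the 37 names, and 8 of 13 tested were at least 2-fold above C in T1, 6 in T20 and 5 below C in T320. The IFIT proteins bind viral RNA that lacks the cap modifications of the host. IFIT1 had 17.98 CPM in C, 85.04 at 1, 34.9 at 2.5, 16.7 at 5, 43.4 at 10, 90.04 at 20, 14.7 at 40, 17.7 at 80, 16.7 at 160 and 6.72 at 320 µM. Its T1 and T20 values were the highest, and the T20 level was 5.01 times that of C (4.17 to 6.04). IFIT3 had 28.1 CPM in C, 47.8 at 1, 36.8 at 2.5, 26.8 at 5, 34.2 at 10, 76.9 at 20, 17.03 at 40, 9.04 at 80, 8.001 at 160 and 6.02 at 320 µM. IFIT2, which did not reach a mean of 20 CPM, was at 61.1 CPM in T20 and between 0 and 25.6 CPM in the other populations. IFIT2 was thus high in T20 alone among the 10 libraries, with 16.9 CPM in T1 and 16.3 CPM in C. IFIT5 ranged from 8.45 to 19.7 CPM and was called in no population.

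MX1, a GTPase that traps viral nucleocapsids, and SAMD9, a factor that restricts poxviruses, were high at the first dose. MX1 had 20.01 CPM in C, 144 at 1, 88.3 at 2.5, 24.3 at 5, 22.3 at 10, 46.1 at 20, 13.3 at 40, 5.71 at 80, 4.98 at 160 and 0 at 320 µM. SAMD9 had 15.2 CPM in C, 118 at 1, 68.1 at 2.5, 55.7 at 5, 63.6 at 10, 86.8 at 20, 15.8 at 40, 15.3 at 80, 11.9 at 160 and 10.97 at 320 µM. MX1 in T1 was 7.19 times its level in C (6.12 to 8.48), and SAMD9 in T1 was 7.75 times (6.45 to 9.37). SAMD9 stayed above C through T20, whereas MX1 was near its untreated level in T5 and T10. OAS1 and OAS3, which make the second messenger that activates RNase L, were highest in T1 at 34.8 and 28.7 CPM, against 4.28 and 3.32 CPM in C, and both were listed at 0 in T160 and T320. OAS2 had values in T1 and T20 alone, at 6.74 and 5.88 CPM. OASL was listed in 1 population, T20, at 22.6 CPM, and ISG20, an exonuclease, was at most 10.1 CPM.

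BST2, also called tetherin, holds budding viruses at the membrane, and the IFITM proteins hinder fusion of viruses with the cell. BST2 had 272 CPM in C, 826 at 1, 661 at 2.5, 363 at 5, 431 at 10, 408 at 20, 131 at 40, 84.4 at 80, 104 at 160 and 30.1 at 320 µM. BST2 in T1 was 3.04 times its level in C (2.89 to 3.19), and in T320 it was lower by 9.04-fold (7.28 to 11.4). BST2 was above C in every population up to T20 and below it from T40 on. IFITM3 had 1273 CPM in C, 3012 at 1, 2616 at 2.5, 1859 at 5, 1122 at 10, 1703 at 20, 1701 at 40, 1510.2 at 80, 699 at 160 and 620.3 at 320 µM. IFITM2 had 589 CPM in C, 979 at 1, 1096 at 2.5, 979 at 5, 553 at 10, 617 at 20, 1067 at 40, 1251 at 80, 545 at 160 and 302 at 320 µM. IFITM1 had 60.7 CPM in C, 217 at 1, 143 at 2.5, 85.5 at 5, 119 at 10, 233 at 20, 119 at 40, 23.1 at 80, 18.9 at 160 and 35.03 at 320 µM. IFITM3 was highest in T1, IFITM1 had its 2 highest values in T20 and T1, and IFITM2 was at its highest in T80, the 1 gene of the list above C by 2-fold there. Of the 31-base words in the last 500 transcript bases, 80.6% of those of IFITM1, 51.7% of IFITM3 and 30.2% of IFITM2 also occur in another gene, so reads may have moved between these 3 genes. The same share was 10.2% for IFIT1 and 100% for IRF9, and 0 to 8.72% for the other genes measured.

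ISG15 is a ubiquitin-like protein, UBE2L6 the enzyme that carries it and HERC5 the ligase that attaches it to proteins. ISG15 had 77.4 CPM in C, 256.1 at 1, 209 at 2.5, 79.5 at 5, 51.2 at 10, 281 at 20, 37.6 at 40, 57.01 at 80, 49.2 at 160 and 56.97 at 320 µM. ISG15 in T1 was 3.31 times its level in C (3.02 to 3.63) and in T20 3.63 times (3.30 to 3.98). UBE2L6 had 31.9 CPM in C, 46.8 at 1, 50.9 at 2.5, 30.9 at 5, 41.5 at 10, 65.1 at 20, 52.5 at 40, 69.6 at 80, 47.9 at 160 and 42.1 at 320 µM. UBE2L6 was within 2-fold of C throughout on the log2(CPM + 10) scale, and HERC5 ran between 6.58 and 37.1 CPM with its highest value in T20. These 3 genes act in 1 chain, and ISG15 alone was called above C.

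Among sensors and transcription factors, DDX58 (RIG-I) and IFIH1 (MDA5) sense viral RNA, STAT2, IRF9 and IRF7 act in the pathway, and IRF1 is an activator that interferon gamma induces strongly. IRF1 had 35.1 CPM in C, 71.6 at 1, 26.9 at 2.5, 19.2 at 5, 35.6 at 10, 23.04 at 20, 36.8 at 40, 18.6 at 80, 13.5 at 160 and 18.4 at 320 µM. DDX58 was at 37.5 CPM in T1 against 9.74 CPM in C, the 1 gene of this group called above C in T1, and it was listed at 0 in T160 and T320. STAT2 stayed between 7.49 and 20.7 CPM, and IRF7 was at most 8.14 CPM. IRF9 had values in T1 (8.80 CPM) and T10 (10.9 CPM) and was listed at 0 elsewhere. IFIH1 was at most 8.99 CPM. The factors at the head of the pathway were therefore measured at low levels, and their calls are limited by depth.

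The list holds 4 PARP enzymes other than the targets of olaparib, which add ADP-ribose to proteins and are induced by interferon. PARP14 had 82.5 CPM in C, 183 at 1, 102 at 2.5, 58.7 at 5, 86.1 at 10, 103 at 20, 35.7 at 40, 23.9 at 80, 31.3 at 160 and 16.3 at 320 µM. PARP9 had 41.2 CPM in C, 64.2 at 1, 42.5 at 2.5, 20.2 at 5, 46.02 at 10, 45.1 at 20, 31.9 at 40, 15.8 at 80, 12.5 at 160 and 6.37 at 320 µM. Both were highest in T1 and lowest in T320, where PARP14 was lower than in C by 5.07-fold (3.76 to 6.98). PARP12 had 23.8 CPM in C, 34.5 at 1, 31.99 at 2.5, 12.7 at 5, 16.1 at 10, 25.9 at 20, 7.33 at 40, 5.85 at 80, 12.6 at 160 and 8.49 at 320 µM. PARP10 ran between 0 and 35.6 CPM and was listed at 0 in T320.

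Of the remaining 8 genes, IFI6, IFI27 and IFI44L are short or little understood products that are used as readouts of interferon, and these had the steepest differences. IFI6 had 123 CPM in C, 1096 at 1, 1668 at 2.5, 248 at 5, 115 at 10, 572 at 20, 30.7 at 40, 29.2 at 80, 18.8 at 160 and 21.2 at 320 µM. IFI6 in T2.5 was 13.6 times its level in C (12.7 to 14.5), and in T320 it was lower by 5.80-fold (4.47 to 7.65). IFI27 had 125 CPM in C, 840.3 at 1, 631 at 2.5, 67.8 at 5, 51.2 at 10, 124 at 20, 32.3 at 40, 11.96 at 80, 0 at 160 and 0 at 320 µM. IFI27 was high at 1 and 2.5 µM, and unlike IFI6 it was not above C in T20. IFI44L had 29.97 CPM in C, 317 at 1, 173 at 2.5, 102 at 5, 136 at 10, 157 at 20, 30.9 at 40, 20.9 at 80, 8.66 at 160 and 6.37 at 320 µM. In T1, IFI44L was 10.6 times its level in C (9.31 to 12.0). IFI44 had 16.9 CPM in C, 50.9 at 1, 31.7 at 2.5, 22.8 at 5, 39.8 at 10, 56.9 at 20, 19.2 at 40, 15.8 at 80, 19.3 at 160 and 16.3 at 320 µM. Both IFI44 and IFI44L were at least 2-fold above C in T1 and in T20. XAF1, an antagonist of an inhibitor of apoptosis, was listed at 14.8 CPM in T1 and 14.4 CPM in T2.5 and at 0 in the other 8 populations. PLSCR1 had 96.4 CPM in C, 96.1 at 1, 73.3 at 2.5, 47.6 at 5, 74.7 at 10, 79.9 at 20, 48.7 at 40, 31.1 at 80, 25.97 at 160 and 21.2 at 320 µM. PLSCR1, a phospholipid scramblase, was the 1 gene of the 36 with its highest value in C. LGALS3BP had 341 CPM in C, 607 at 1, 523 at 2.5, 309.7 at 5, 519.7 at 10, 544 at 20, 393 at 40, 467 at 80, 491 at 160 and 439 at 320 µM. LGALS3BP, a secreted glycoprotein, was called in no population. IFI35 ran between 5.25 and 20.5 CPM.

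**Figure D2:**
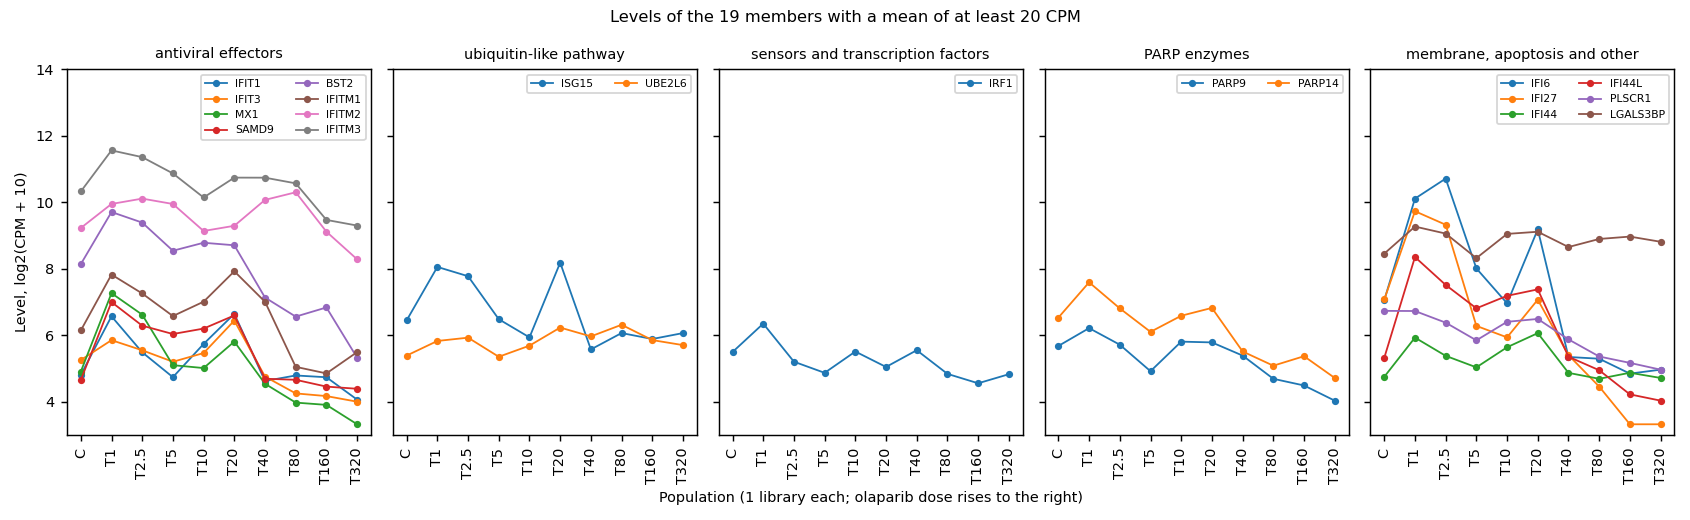
Level of each of the 19 genes with a mean of at least 20 CPM, as log2(CPM + 10), in the 10 populations, 1 panel per role and 1 library per point. Most lines peak at T1 or T2.5, ISG15 and IFIT1 peak again at T20, and IFI27 runs down to a listed value of 0 in T160 and T320.

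Between T2.5 and T1, 2 of the 33 genes were at least 2-fold lower in T2.5 and 0 higher, each against 0.544% of all genes. The turns in direction fell on 3 other steps of the series. From T2.5 to T5, 6 of the 33 genes were at least 2-fold lower and 0 higher, against 0.94% and 0.869% of all genes. Those 6 were IFI27 (67.8 CPM in T5 and 631 CPM in T2.5), IFI6 (248 CPM in T5 and 1668 CPM in T2.5), MX1, ISG15, OAS3 and XAF1. Of these, XAF1 was listed at 0 in T5. In T20 against T10, 4 genes were higher and 0 lower (1.54% and 1.93% of all genes), namely ISG15 by 5.48-fold (4.74 to 6.36), IFI6 by 4.99-fold (4.53 to 5.52), IFI27 by 2.43-fold (2.07 to 2.86) and ISG20, which was listed at 0 in T10. The ISG20 difference was 1.01 on the log2(CPM + 10) scale, so its call rests on that listed value of 0. In T40 against T20, 15 were lower and 0 higher, against 2.34% and 2.04% of all genes. IFI6 was lower in T40 by 18.6-fold (15.8 to 22.1), ISG15 by 7.46-fold (6.40 to 8.74) and IFIT1 by 6.14-fold (4.78 to 7.99). IFITM2 and IFITM3 were not among the 15.

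Whether the genes declined over the whole series was tested with a slope per step on the summed counts, using the quasi-likelihood F-test of edgeR at 0.05 after Benjamini-Hochberg correction across all 11387 genes. Of the 33 genes, 11 fell and 0 rose (0 rose also with DESeq2 and with limma-voom), against 8.99% of all genes that fell and 8.03% that rose. At an unadjusted p under 0.05, 16 fell and 0 rose. No share of all genes is given at the unadjusted limit, and the shares above do not apply to it. The fit treats the 10 steps as separate samples although all come from 1 dose series of 1 line. PLSCR1 fell by 0.25 per step (adjusted p = 0.00566), PARP14 fell by 0.34 (adjusted p = 0.00775), BST2 fell by 0.46 (adjusted p = 0.00866) and IFI27 fell by 1.02 (adjusted p = 0.00987), all on the log2 scale. BST2, IFI27, PARP14 and PLSCR1 kept the call whichever single population was left out. The others that fell were MX1 (adjusted p = 0.0137), PARP12 (0.0190), PARP9 (0.0205), IFI6 (0.0224), IFI44L (0.0289), XAF1 (0.0298) and IRF1 (0.0383). XAF1 had UMIs in T1 (79) and T2.5 (45) alone and was listed at 0 elsewhere. It reached the UMI minimum through these libraries, so its call rests on them and on the values listed at 0. Leaving out T1 left 4 genes called, T320 5, T160 6 and T80 7, and leaving out T20 gave 14. With C to T80 alone, 1 gene was called, IFI27, which fell by 0.78 per step (adjusted p = 0.0348). The shares of all genes given above belong to the edgeR fit of all 10 populations alone.

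The second high point, in T20, was carried by few cells for part of the genes. In that library 17 of 1461 cells (1.16%) held at least 10 UMIs of IFIT1, IFIT2 and IFIT3 together, a limit set after the values were seen. There were 2 such cells in T1, 1 in T2.5, 3 in T10, 1 in T160 and 0 in T5, T40, T80, T320 and C. The 17 cells held 1.78% of the UMIs of T20, and had a median of 4495 UMIs against 2742 over the library and a mitochondrial share of 6.78% against 7.33% in the other 1444 cells. Of these cells, 11 were listed in State S2, 6 were in no State, and 0 were in S3 or S4.

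The genes split by how much of their T20 signal sat in those 17 cells. OASL had 88.5% of its UMIs there (80.4 to 94.1), 85 of 96 molecules. IFIT2 had 70.0%, HERC5 53.8%, IFIT3 52.3%, IFIH1 48.6%, IFIT1 35.2%, DDX58 35.1%, ISG20 34.9% and ISG15 32.7%. IFIT1, IFIT2 and IFIT3 were used to choose the cells, so their shares follow from the choice. OASL had a UMI in 7 of the other T20 cells, and genes listed above 0 in T20 had one in at least 14 cells. Its listing there thus rests on the 17 cells, and its share follows in part from that limit. IFI27 lay at the other end with 1 of 529 UMIs (0.189%, 0.00479 to 1.05), beside IFIT5 with 1.32%, IFITM3 with 2.94%, BST2 with 3.34%, IFI6 with 4.32% and IFI44L with 5.26%. OASL, IFIT2, HERC5 and IFIT3 thus had most of their T20 molecules in 17 cells, and IFI27 had a smaller share there than the 1.78% of all UMIs. ISG15 was at 5152 CPM in the 17 cells and 192 CPM in the other T20 cells, against 77.4 CPM in C. HERC5 was at 1120 CPM in the 17 cells and 17.5 CPM in the other T20 cells, against 19.6 CPM in C. IFI27 was at 13.2 CPM in the 17 cells and 126 CPM in the other T20 cells, against 125 CPM in C. The other T20 cells include S3 and S4, where IFI27 was at 302 and 254 CPM. In S2, the State of 11 of the 17 cells, it was at 41.6 CPM. The low IFI27 value is therefore not particular to the 17 cells.

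Genes outside the list were found in the same cells. RSAD2 (viperin), an antiviral enzyme, had 72 of its 91 T20 UMIs in the 17 cells (79.1%). CCL5, a chemokine, had 43 of 99 (43.4%). Genes listed above 0 in T20 had a UMI in at least 14 cells. Outside the 17 cells, RSAD2 had one in 12 cells and CCL5 in 8. Both were thus listed in T20 only with the 17 cells, and their shares follow in part from that limit. KRT8, a keratin that the line expressed throughout, had 1.99% of its UMIs there and PAX8, a transcription factor of the Müllerian lineage, had 3.02%. CD68, a macrophage marker, was listed at 0 in T20. No gene with a UMI in under 14 T20 cells was listed above 0, so the CD68 value cannot describe the 17 cells. KRT8 was at 843 CPM in the 17 cells and 753 CPM in the others, and PAX8 at 382 and 223 CPM. In the same order, KRT18 was at 290 and 313 CPM and SOX17 at 79.1 and 30.2 CPM. The collagen genes COL3A1 and COL1A1 were at 303 and 243 CPM and at 13.2 and 83.5 CPM.

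**Figure D3:**
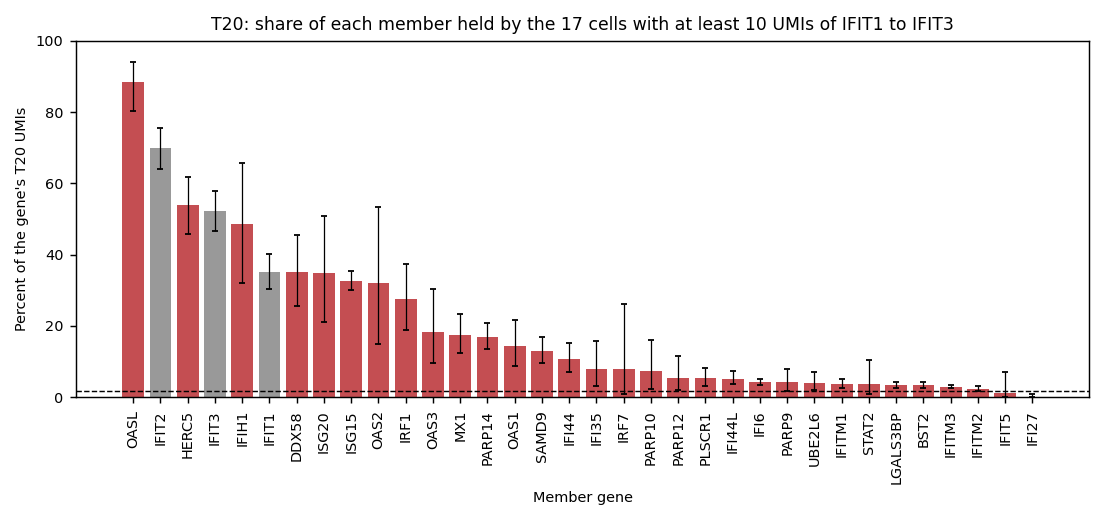
Share of each gene's T20 UMIs held by the 17 T20 cells with at least 10 UMIs of IFIT1 to IFIT3, with exact 95% intervals, for the members with at least 25 T20 UMIs. Grey bars are the 3 genes that chose the cells, and the dashed line marks the 1.78% of all T20 UMIs that these cells held; OASL stands at 88.5% and IFI27 at 0.189%.

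Without the 17 cells, 8 genes instead of 10 were at least 2-fold above C in T20, an alternative added after the data were seen. The difference from C was then 0.13 instead of 1.44 for IFIT2, 0.31 instead of 1.19 for IFIT3, and -0.11 instead of 0.67 for HERC5. For the 8 genes still called it was 2.09 (IFI6), 2.01 (IFI44L), 1.79 (SAMD9), 1.75 (IFITM1), 1.33 (OAS1), 1.31 (IFIT1), 1.21 (ISG15) and 1.20 (IFI44). IFIT2 and IFIT3 were no longer called without these cells, but they were among the genes that chose the cells, so this follows from the choice. No share of all genes is given for T20 without the 17 cells.

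At 1 and 2.5 µM some of the genes were seen in most cells and others in a minority. IFI6 had a UMI in 73.4% of T1 cells and 74.8% of T2.5 cells, against 30.3% of C cells, and in 4.20% of T320 cells. BST2, IFI27, IFITM2 and IFITM3 were also seen in over 50% of cells at both doses. In C these shares were 52.6% for BST2, 35.0% for IFI27, 72.5% for IFITM2 and 88.6% for IFITM3. IFI27 alone of these genes was thus under 50% in C. IFITM2 (68.0%) and IFITM3 (86.2%) were seen in a smaller share of T2.5 cells than of C cells. ISG15 had a UMI in 34.4% of T1 cells and 27.9% of T2.5 cells, MX1 in 20.7% and 12.6%, and IFIT1 in 14.7% and 5.96%. The C shares were 26.4% for ISG15, 6.07% for MX1 and 7.70% for IFIT1. The richest 1% of cells held 9.79% of the IFI6 UMIs in T1 and 13.3% in T2.5. For IFIT2, a gene of few molecules, the richest 1% held 35.6% of 90 UMIs in T1, 70.0% of 40 UMIs in T2.5 and 70.8% of 260 UMIs in T20. Shares of cells with a UMI depend on depth and on free RNA, and because each library holds 1 line, no cell type that should lack these genes was at hand to give a background share.

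To compare cells at 1 depth, every cell was thinned to 1000 UMIs, and shallower cells were left out (429 of 2312 in T1, 614 of 1561 in T2.5, 359 of 1461 in T20, 243 of 1334 in T320 and 365 of 1845 in C). At least 5 of the 36 genes had a UMI in 56.5% of T1 cells (54.2 to 58.7), 47.9% of T2.5 cells (44.7 to 51.2) and 28.0% of T20 cells (25.4 to 30.8), against 7.91% of C cells (6.58 to 9.40). The share was 13.3% at 5, 12.0% at 10, 6.13% at 40, 3.95% at 80, 0.993% at 160 and 0.550% at 320 µM. Unthinned, it was 84.1% in T1, 63.1% in T2.5 and 66.7% in T20, against 51.8% in C. The number rests in part on the most abundant gene: without IFITM3 it was 40.1% in T1, 30.0% in T2.5 and 16.2% in T20.

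**Figure D4:**
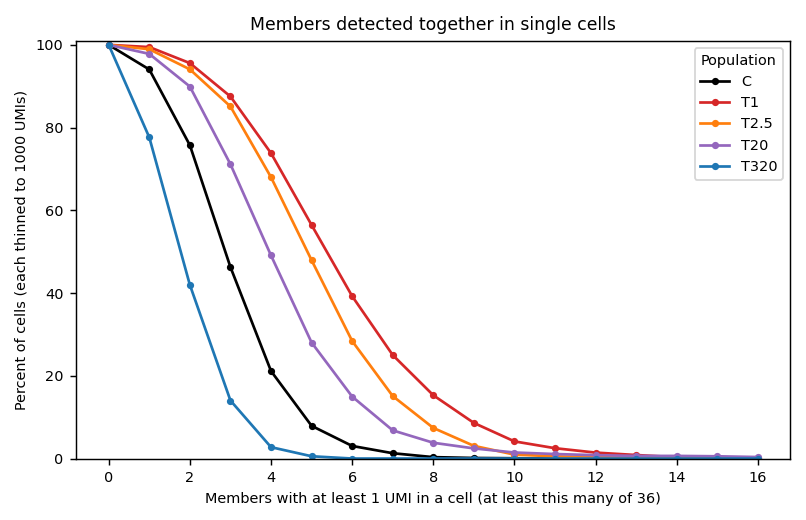
Share of cells, each thinned to 1000 UMIs, in which at least the given number of the 36 genes had a UMI, for 5 of the 10 populations. At 5 genes the curves stand at 56.5% (T1), 47.9% (T2.5), 28.0% (T20), 0.550% (T320) and 7.91% (C), and at 10 genes at 4.14% (T1), 0.9504% (T2.5) and 1.45% (T20).

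The spread between cells was also described. Over the 32 genes without IFITM1 to IFITM3 and LGALS3BP, the variance of the summed thinned UMIs over their mean was 3.24 in T1, 3.08 in T2.5, 4.84 in T20 and 1.10 in T320, against 1.43 in C. Binomial counting alone would give 0.996 in T1. The means were 4.50 in T1, 4.16 in T2.5, 2.48 in T20, 0.352 in T320 and 1.18 in C. At an equal relative spread this ratio rises with the mean, so a higher ratio at a higher mean is not by itself a wider spread. T20 had a higher ratio than T1 and T2.5 at a lower mean. Part of the genes also went together across cells. Among genes with a UMI in at least 5% of thinned cells, 39 of 120 pairs in T1 (32.5%), 17 of 91 in T2.5 (18.7%) and 20 of 120 in T20 (16.7%) had a Pearson correlation above 0.1, against 0.0758%, 0.356% and 0.238% of all gene pairs in the same libraries. Correlations below 0 were found for 4 of the 120 pairs in T1, 18 of the 91 in T2.5 and 26 of the 120 in T20. These correlations are descriptions over 1883, 947 and 1102 cells of 1 library each. IFI6 and IFI27 had r = 0.26 in T1, 0.29 in T2.5 and -0.04 in T20, and ISG15 and IFI6 had 0.20, 0.21 and 0.14 in the same libraries. In T20, outside the IFITM genes, the pairs that led were ISG15 with PARP14 at 0.26 and IFIT1 with ISG15 at 0.24. The 17 T20 cells of high IFIT counts were kept in the T20 spread and correlations. They held 32.7% of the T20 UMIs of ISG15, 16.9% of those of PARP14 and 35.2% of those of IFIT1. IFITM2 with IFITM3 had 0.37 in T1 and 0.29 in T20, and IFITM1 with IFITM3 had 0.25 in T20, but these share sequence.

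Among the 10 genes outside the list that followed the summed thinned UMIs most closely over T1 cells were B2M (r = 0.23), LY6E (0.21), S100A10 (0.20), HLA-B (0.18), TSC22D1 (0.17), IGFBP7 (0.17), WFDC2 (0.17) and HLA-C (0.16). B2M, HLA-B and HLA-C belong to MHC class I, which presents peptides to T cells, and LY6E is itself induced by interferon. In T20 the r of LY6E was 0.16 and that of B2M 0.16, and in T2.5 they were 0.28 and 0.17.

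The authors grouped a part of the cells, 8240 of 18209, into States (S1 to S5) in the deposited cell table, and within a library the genes differed between States. The States were built from these same cells, so the values are descriptions without a test. In T5, S2 cells (215) had 4 genes at least 2-fold below S1 cells (183) and 0 above, against 2.83% and 2.15% of all genes. IFI6 was at 119 CPM in S2 and 478 CPM in S1, and IFI27 was at 23.4 CPM in S2 and 158 CPM in S1. MX1 was at 3.12 CPM in S2 and 57.3 CPM in S1, and IRF1 was at 9.37 CPM in S2 and 41.2 CPM in S1. The cells of 5 µM that still belonged to the State of the lower doses thus had the higher values of these 4 genes.

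In T10, S4 cells (196) had 3 genes above S2 cells (688) and 4 below, against 2.55% and 4.13% of all genes. IFITM3 was at 2030.1 CPM in S4 and 938 CPM in S2, IFITM2 at 1029 CPM in S4 and 441 CPM in S2, and IFI27 at 110.5 CPM in S4 and 34.1 CPM in S2. BST2 was lower, at 199 CPM in S4 and 504 CPM in S2, as were IFIT1, IFI44 and IFI44L. Against the same S2 cells, S3 cells (146) had 1 gene above and 6 below (3.15% and 4.89% of all genes): IFI27 was at 141 CPM in S3, and IFIT2, IFIT3, ISG15, IFI6, IFI44 and IFI44L were lower.

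The contrasts were widest in T20. S4 cells (74) had 17 genes below S2 cells (417) and 1 above, against 6.29% and 3.76% of all genes, and S3 cells (149) had 10 below and 1 above, against 4.36% and 3.42%. ISG15 was at 53.3 CPM in S3 and 178 CPM in S4, against 447 CPM in S2. IFIT1 was at 35.5 CPM in S3 and 56.5 CPM in S4, against 141 CPM in S2. IFI44L was at 84.9 CPM in S3 and 68.7 CPM in S4, against 251 CPM in S2. IFI27 went the other way, at 302 CPM in S3 and 254 CPM in S4, against 41.6 CPM in S2, which is 7.27 times the S2 level in S3 (5.37 to 9.94) and 6.12 times in S4 (4.24 to 8.85). The genes lower in S4 were IFIT1, IFIT2, IFIT3, MX1, OAS3, SAMD9, BST2, IFIH1, STAT2, IRF1, ISG15, HERC5, PARP12, PARP14, IFI44, IFI44L and PLSCR1. For STAT2, IRF1 and PARP12, S4 held 2 UMIs each, and the interval of the ratio includes no difference. OAS3 and IFIH1 had 0 UMIs in S4, against 15.7 and 15.0 CPM in S2, and no interval was computed for them. Those lower in S3 were IFIT1, IFIT2, IFIT3, MX1, OAS1, DDX58, ISG15, HERC5, IFI6 and IFI44L. The 17 cells of high IFIT counts included 11 of S2. Without the 17, 9 genes instead of 17 were lower in S4 and 6 instead of 10 in S3. These cells were chosen by IFIT1 to IFIT3, so part of this drop follows from the choice.

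**Figure D5:**
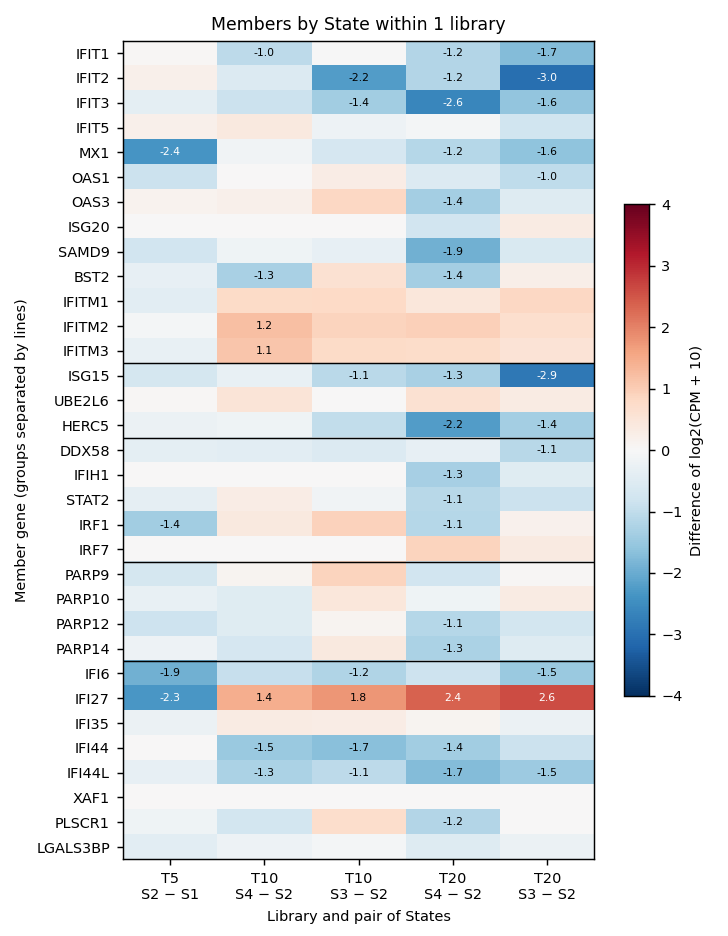
Difference of log2(CPM + 10) between pairs of States inside the libraries of 5, 10 and 20 µM, for the 33 genes, printed where it reaches 1 in size. Most called values are below 0 for the later State, and IFI27 is above S2 in all 4 contrasts of T10 and T20 and below S1 in T5.

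Other parts of the pathway were read from fixed lists. Of 10 interferon ligand genes named, 0 had a row, and they were not analysed here. Among 15 genes of nucleic acid sensing, 3 fell (IKBKE, IFI16 and ADAR) and 1 rose (SAMHD1) in the slope test, against 8.99% and 8.03% of all genes. EIF2AK2 (PKR), a kinase that double-stranded RNA activates, was at 369.8 CPM in T1 and 272 CPM in T20, against 122 CPM in C. TMEM173 (STING), the adaptor downstream of the DNA sensor cGAS, was at 102 CPM in T1, 74.8 CPM in T20 and 54.8 CPM in T320, against 122 CPM in C. Of 9 negative regulators tested, 0 differed from C by 2-fold in T1, T20 or T320. The shares of all genes above and below C were 4.41% and 2.28% in T1 and 4.58% and 3.5% in T20. In T320 they were 11.1% and 8.03%. With 9 genes, a count of 0 is therefore not a result about the regulators. Of 31 other interferon-stimulated genes tested, 8 fell in the slope test, against 8.99% of all genes. In T1, 5 of the 31 were at least 2-fold above C and 0 below (4.41% and 2.28% of all genes), namely SAMD9L, RNF213, SP110, DDX60 and SERPING1, and in T320, 1 was above and 8 below (11.1% and 8.03%). SERPING1, an inhibitor of complement, was at 121 CPM in T1, 43.5 CPM in T20 and 13.4 CPM in T320, against 44.0 CPM in C. GBP1, a guanylate-binding protein that interferon gamma induces, was not above C in T1, at 115 CPM in T1, 38.6 CPM in T20 and 11.3 CPM in T320, against 132 CPM in C.

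Part of the MHC class I genes were above C at the highest dose. Of 13 tested genes of the group, TAPBP fell, and HLA-B, HLA-C and HLA-E were at least 2-fold above C in T1, T2.5, T20 and T320 alike, against 4.41%, 2.92%, 4.58% and 11.1% of all genes. The median difference from C over the 13 genes was 0.79 in T1, 0.64 in T2.5, 0.60 in T20 and 0.00 in T320. HLA-B was at 375 CPM in T1, 510.2 CPM in T20 and 453 CPM in T320, against 137 CPM in C, where the T320 ratio was 3.30 (3.05 to 3.57). The summed level of the interferon-stimulated genes without IFITM1 to IFITM3 and LGALS3BP was 4546 CPM in T1, 2532 CPM in T20 and 324 CPM in T320, against 1144 CPM in C. HLA genes are close copies of each other, so reads may be split between them.

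Markers of other cell types gave these values. Of 6 leukocyte markers, CD68 alone had a row, and it was listed at 0 from C to T20 and at 4.16 to 43.9 CPM from T40 to T320. Of 4 markers of plasmacytoid dendritic cells, which secrete interferon in tissue, TCF4 alone had a row, at 43.0 to 140.5 CPM with its highest value in T1. Endothelial markers (VWF and CDH5) summed to at most 10.7 CPM. COL1A1, COL3A1 and PDGFRB summed to 2173 CPM in T5, 423 CPM in T1 and 326 CPM in T20, against 25.3 CPM in C. Of the epithelial markers, KRT8 and KRT18 were present in every population, EPCAM was at most 5.17 CPM and CDH1 had no row, and the serous ovarian marker PAX8 ran from 151 to 544 CPM. The epithelial sum was 411 CPM in T320, against 1632 CPM in C. The mitochondrial share of UMIs was 7.08 to 9.31% in the treated populations, against 11.5% in C. The part of these in the differences was not tested.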

How the data were processed

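Single cells of 10 populations of the Kuramochi line, 1 inDrop library each, were compared. The deposited matrix holds UMI counts per gene and cell. The submitters' processing notes name Seurat 2.3.2 and the builds hg38 and GRCh38; no source used here names the aligner, the counting tool or the filters on cells and genes. The deposited cell table gives States and a mitochondrial fraction per cell, computed by the authors. Of its 8240 cells, 7322 were matched to the matrix by name and 918 (T40) by barcode, and all had the same UMI total in both; no column belonged to no sample.

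Counts were summed over cells per population or State. No doublet caller was run, and no source used here says whether the authors removed doublets. The slope per step (0 to 9) was fitted with edgeR 4.0.16 (R 4.3.3) with TMM scaling; DESeq2 1.42.0 and limma 3.58.1 served as alternatives. Genes needed 100 UMIs in all. Differences between populations or States, with 1 library each, have no test. The fit was checked on simulated data. Ratio intervals condition on the sum of both counts. Sequence sharing used 31-base words of GENCODE 29 transcripts. Genes with a mean of at least 20 CPM are given in every population, as are genes called by the slope; others are given by range unless called between States. The genes, lists and tests were chosen with earlier results of these data known. Alternatives were other scalings, a pseudocount of 1, other filters, listed cells only, thinning to 700 UMIs, and leaving out each population. Some genes are not reported here.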

Additional observations from a re-analysis of the deposited data

How the results depend on the processing

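No paired analysis was possible because each population was 1 library. For the main counts of genes and shares of cells, 84 alternative values stayed close to the main one and 25 moved. A count or a share has no direction to reverse. With a pseudocount of 1 CPM in place of 10, 17 genes were above C in T20, 7 below C in T40 and 16 below C in T160. In the same setting, 7 were lower in S2 than in S1 of T5. With listed cells only, 2 were below C in T40. The share of all genes called is given for the main settings alone. The counts under alternatives, those of the slope test included, therefore have no such share beside them. With a mean of at least 20 CPM as the filter, 11 genes were lower in S4 and 6 lower in S3 than in S2 of T20, and without the T20 cells of at least 10 IFIT UMIs these counts were 9 and 6. The slope test gave between 4 and 14 falling genes and 0 rising when single populations were left out, and 1 falling gene with C to T80 alone, a fit with fewer libraries. DESeq2's Wald test gave 15 falling genes, limma-voom 10, library totals 10, and DESeq2 size factors, no filter, log2 of dose and leaving out sequence-sharing genes 11 each. The share of cells with at least 5 of the genes was 40.8% in T1, 30.1% in T2.5 and 15.0% in T20 when thinned to 700 UMIs, 84.1%, 63.1% and 66.7% without thinning, and 40.1%, 30.0% and 16.2% without IFITM3. With listed cells only it was 59.9% in T1 and 32.5% in T20. Genes under about 10 CPM cannot be called lower at these depths, because the pseudocount limits how far they can fall.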
